A study of Mus musculus with 6 samples.

Results

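Cxcl12 and Cxcr4, a chemokine and its receptor, were examined in RNA sequencing of the whole cerebellum of mouse pups. They were selected by gene symbol, and each symbol had 1 entry, so they are 2 of the 41228 entries in the table. The samples were cerebella of C57BL/6 pups aged 6 days, in 6 libraries, each taken as 1 animal. Of these, 3 pups were wild type and 3 carried a conditional knockout of SnoN (SnoN cKO), and no further treatment is named for either group. SnoN, the product of Skil, is a Ski-family regulator that binds Smad proteins. Each genotype had 1 pup labelled female and 2 labelled male. Neither the Cre driver nor the deleted cells are named in the labels used here. Libraries held between 12662952 and 17840662 counts on genes.

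Cxcl12, also known as SDF-1, is a secreted chemokine made by the meninges that cover the developing cerebellum. Cxcr4 is a receptor coupled to inhibitory G proteins and is carried by granule neuron precursors of the external granule layer just beneath the meninges. In mice lacking either gene, granule precursors leave that layer too early, and Cxcl12 is also known to enhance the proliferative response of these cells to Sonic hedgehog. Ackr3, formerly Cxcr7, binds the same ligand and removes it from the tissue.

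The sequence just before the start of each gene is shown because SnoN is known to act on DNA through Smad proteins, whose short recognition sequence can be looked for. The 250 bases before the RefSeq start are given 5′ to 3′ on the strand of the gene, in the GRCm38.p6 build. They lie at chr6:117168285-117168534 on the plus strand for Cxcl12, chr1:128592300-128592549 on the minus strand for Cxcr4 and chr1:90203730-90203979 on the plus strand for Ackr3. Capitals mark matches, on either strand, to the GC-rich box GGGCGG, to a core recognised by hypoxia-inducible factors, GCGTG, and to the box of core promoters called TATAAA.
Cxcl12: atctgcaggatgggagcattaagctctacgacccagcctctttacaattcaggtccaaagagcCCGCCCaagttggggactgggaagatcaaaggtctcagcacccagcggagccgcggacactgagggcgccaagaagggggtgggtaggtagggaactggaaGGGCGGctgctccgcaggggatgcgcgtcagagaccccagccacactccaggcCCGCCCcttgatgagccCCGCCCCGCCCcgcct
Cxcr4: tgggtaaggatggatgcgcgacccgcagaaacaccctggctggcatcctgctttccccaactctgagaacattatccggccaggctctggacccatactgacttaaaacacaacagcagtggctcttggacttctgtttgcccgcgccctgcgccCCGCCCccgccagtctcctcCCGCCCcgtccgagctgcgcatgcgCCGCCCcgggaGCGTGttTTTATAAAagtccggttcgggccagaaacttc
Ackr3: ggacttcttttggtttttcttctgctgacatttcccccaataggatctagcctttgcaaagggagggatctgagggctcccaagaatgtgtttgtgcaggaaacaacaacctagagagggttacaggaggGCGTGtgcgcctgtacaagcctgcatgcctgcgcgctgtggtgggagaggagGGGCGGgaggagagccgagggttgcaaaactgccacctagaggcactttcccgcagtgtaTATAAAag
The Smad box CAGAC, searched on both strands, was absent from all 3 windows, whereas 42.2% of the 32851 promoters of the same length in the RefSeq table held it. The Smad palindrome GTCTAGAC and the core ACGTG were absent as well, and 0.2% and 16.6% of promoters held them. The GC-rich box occurred 5 times before Cxcl12, 3 times before Cxcr4 and 1 time before Ackr3, against a share of 32.7% of promoters with any. TATAAA, held by 12.4% of promoters and not by Cxcl12, began 30 bases before the start of Cxcr4, where it overlapped a match on the other strand, and 8 bases before that of Ackr3. GCGTG, held by 28.2% of promoters, occurred once each in the windows of Cxcr4 and Ackr3. These are matches of letters and show nothing of binding.

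Levels of Skil, the targeted gene, lay lower in SnoN cKO libraries, between 74.7 and 77.5 CPM (counts scaled to library size), than in wild type, between 87.5 and 89.5 CPM. Its log2 fold change was -0.22 (SE 0.04), with an unadjusted p of 0.000379 and an adjusted p of 0.637 by edgeR's quasi-likelihood test. Some libraries also differed in ways that the genotype labels do not account for. Sex-linked genes went against the labelled sex in SnoN cKO 1 and SnoN cKO 2. Xist had 35 counts in SnoN cKO 1, labelled female, and 37467 in SnoN cKO 2, labelled male, while Ddx3y had 1146 and 0. Both libraries belong to the same genotype, and results are also given without them. SnoN cKO 2 held almost no choroid plexus RNA, with Ttr at 17.3 CPM against at least 1641 CPM elsewhere. Gm42418, an entry that overlaps a ribosomal RNA repeat, reached 39053 CPM in SnoN cKO 3 and 6921 CPM in wild type 2. The other libraries held at most 656 CPM.

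Cxcl12 was the more highly counted of the pair, and its genotype difference did not pass the test. CPM divides the counts by the library total of the genes tested, scaled by trimmed means. Cxcl12 stood at 121, 110.3 and 129.9 CPM in wild type 1, 2 and 3, from 1551, 1660 and 1666 counts. In SnoN cKO 1, 2 and 3 it stood at 124, 124 and 125 CPM, from 1582, 1835 and 2133 counts. All 3 SnoN cKO libraries therefore lay between wild type 1 and wild type 3, the groups overlapped, and wild type held both the lowest and the highest library. Means were 124 ± 0.632 CPM for SnoN cKO and 120.5 ± 9.83 CPM for wild type (SD, n = 3 each).

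The spread of Cxcl12 lay mostly among the wild type pups. Counting error alone was between 2.17% and 2.54% of the level in each library, and covers counting only. The coefficient of variation was 8.16% in wild type and 0.508% in SnoN cKO, so the SnoN cKO libraries differed by less than their counting error. Wild type 2 and wild type 3 differed beyond it, with 95% Poisson intervals of 105 to 116 CPM and 124 to 136 CPM. Wild type 2 was also the wild type library with high Gm42418, and the part of that in its Cxcl12 level was not tested. In SnoN cKO 3, where Gm42418 was highest, Cxcl12 was at 125 CPM, but a single library of the other genotype says nothing of wild type 2.

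The genotype difference of Cxcl12 was small against that spread. The log2 fold change, SnoN cKO over wild type, was 0.05 (SE 0.06, 95% interval -0.09 to 0.18), which corresponds to a range from -5.8% to 13.2%. By edgeR's quasi-likelihood test the unadjusted p was 0.452 and the adjusted p 0.844, with 0% of the 15457 genes tested past an adjusted p of 0.05. Differences within this interval could not be resolved with these libraries. Without wild type 2 the log2 fold change was -0.01, and without wild type 3 it was 0.10. In bulk tissue, fewer cells of a type and less RNA per cell cannot be told apart.

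Cxcr4 was slightly higher on average in SnoN cKO, and did not pass the test. It stood at 50.2, 54.1 and 52.1 CPM in wild type 1, 2 and 3, from 641, 814 and 668 counts. In SnoN cKO 1, 2 and 3 it stood at 55.8, 59.0 and 53.4 CPM, from 713, 872 and 911 counts. SnoN cKO 2 was highest and wild type 1 lowest, and the groups overlapped through wild type 2, which lay above SnoN cKO 3. Means were 56.1 ± 2.80 CPM for SnoN cKO and 52.1 ± 1.96 CPM for wild type (SD, n = 3 each), and counting error was between 3.31% and 3.95% per library.

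For Cxcr4 the log2 fold change was 0.11 (SE 0.06, 95% interval -0.02 to 0.23), a range from -1.26% to 17.2%. The unadjusted p was 0.0867 and the adjusted p 0.658 by edgeR's quasi-likelihood test. Its value moved with single libraries. The log2 fold change was 0.07 without SnoN cKO 2 and 0.08 without wild type 1. Without wild type 2 it was 0.14, and without SnoN cKO 3 it was 0.15 (unadjusted p 0.0417, adjusted p 0.506 from edgeR). SnoN cKO 2 was also the library with little choroid plexus RNA and with the highest level of granule precursor genes, and the part of these was not tested. Without SnoN cKO 1 and 2, the libraries at odds with their labelled sex, it was 0.03 for Cxcr4 and 0.05 for Cxcl12. That leaves SnoN cKO 3 as the only knockout library, so the spread comes from wild type alone and the lone library is assumed to vary like it.

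**Figure D1:**
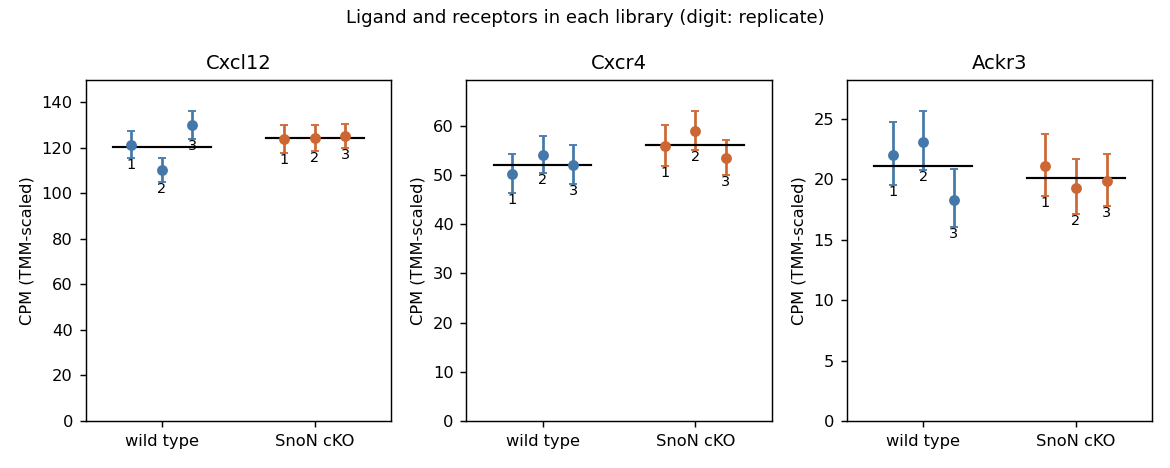
Level of Cxcl12, Cxcr4 and Ackr3 in CPM for each library by genotype, with the replicate number under each point. Bars are 95% Poisson intervals of the count and horizontal lines are group means. The SnoN cKO points of Cxcl12 lie between 124 and 125 CPM, inside the wild type range of 110.3 to 129.9 CPM.

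Ackr3, the second receptor, overlapped between genotypes as well. It was at 22.0, 23.1 and 18.3 CPM in wild type 1, 2 and 3 and at 21.1, 19.3 and 19.9 CPM in SnoN cKO 1, 2 and 3. All SnoN cKO libraries lay within the wild type range. Its log2 fold change was -0.08 (SE 0.10, 95% interval -0.30 to 0.14), with an adjusted p of 0.844 by edgeR's quasi-likelihood test. The wild type pups were again the more spread, with a coefficient of variation of 11.9% against 4.52%, and wild type 3 combined the lowest Ackr3 with the highest Cxcl12.

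The balance of ligand to receptor overlapped between genotypes. Wild type 1, 2 and 3 had 2.42, 2.04 and 2.49 Cxcl12 counts for each Cxcr4 count. SnoN cKO 1, 2 and 3 had 2.22, 2.10 and 2.34. Wild type again held the lowest and the highest value. The mean log2 ratio differed by -0.06 between genotypes, SnoN cKO minus wild type, with a two-sided exact permutation p of 0.6, where 3 libraries against 3 cannot give less than 0.1.

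Which of the pair is more abundant per length depends on the Cxcl12 transcript. Over merged exons of the GENCODE M21 annotation, 8176 bases for Cxcl12 and 1808 for Cxcr4, the mean level was 14.98 CPM per kb for Cxcl12 and 29.9 CPM per kb for Cxcr4. Cxcr4 was then higher in 6 of 6 libraries, by between 1.81 and 2.22 times. With the longest transcript of each gene the levels were 21.8 and 30.0 CPM per kb. The coding transcripts of Cxcl12 range from 1878 to 5627 bases, and at 3132 bases, the length of the middle one, the same reads give 39.1 CPM per kb, above Cxcr4. Counts per gene do not separate these transcripts, so the order of ligand and receptor is not settled. The annotation is of a later build than the mm9 build of the counts, and no annotated gene overlaps Cxcl12, Cxcr4 or Ackr3 in it.

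Cxcl12 was the most abundant per length of the chemokine ligands listed, and most of the listed family had few or no counts. The family list held 33 other ligands and 21 receptors besides Cxcr4 and Ackr3. Cxcl12 ranked first of 34 ligands per kb in 6 of 6 libraries, over merged exons or over the longest transcript. The next ligands over merged exons were Cx3cl1 or fractalkine, which neurons present to microglia, at 7.09 CPM per kb, and Cxcl14 at 6.71 CPM per kb. Cxcr4 ranked between 1 and 2 of 23 receptors over merged exons. Ackr1, a chemokine-binding protein known from red cells, venules and Purkinje cells, was at 31.0 CPM per kb. Ackr1 overlaps the neuronal adhesion gene Cadm3 on the same strand in the annotation, so its reads may be shared. Cx3cr1, the fractalkine receptor of microglia, was at 6.22 CPM per kb, close to Ackr3 at 6.16 CPM per kb. In the annotation Cx3cr1 overlaps 9 genes, among them Gorasp1, Csrnp1 and Xirp1 on the same strand, so its reads may be shared.

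**Figure D2:**
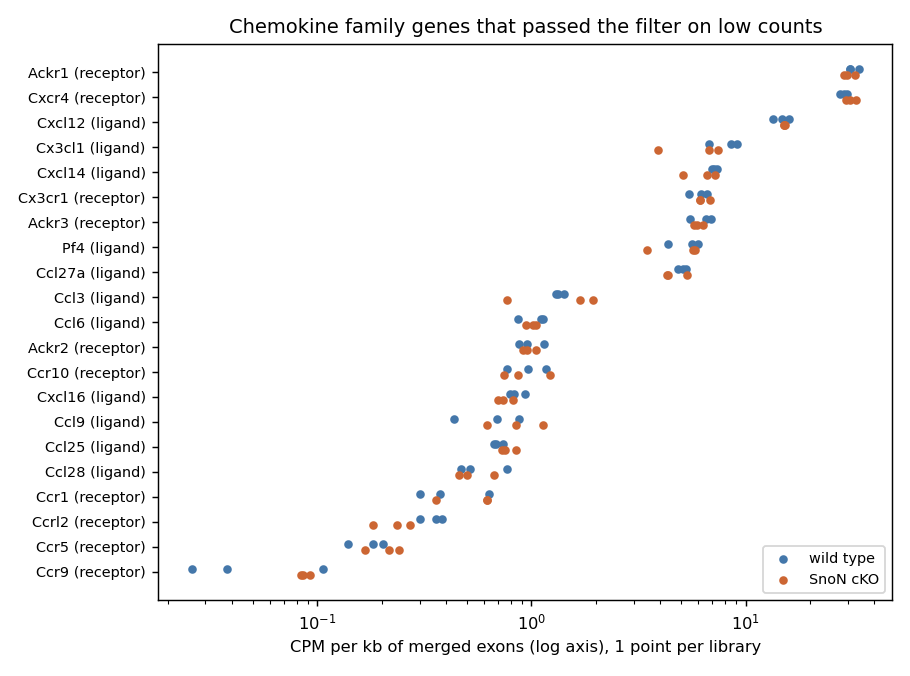
Level of the listed chemokine ligands and receptors that passed the filter on low counts, with Cxcl12, Cxcr4 and Ackr3. Levels are in CPM per kb of merged exons on a log axis, 1 point per library, coloured by genotype. Ackr1 and Cxcr4 lead, followed by Cxcl12, the highest ligand, and the genotypes overlap in all 3, for Cxcr4 only through wild type 2, which lies above SnoN cKO 3.

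Of the 54 other chemokine genes listed, 49 had any count and 18 passed the filter on low counts. Among those 18, 0 passed the adjusted threshold and 0 had an unadjusted p under 0.05 by edgeR's quasi-likelihood test, against 7.68% of all genes tested. Their median log2 fold change was -0.05, beside -0.002 for all genes. Cx3cl1 was at 33.5, 35.9 and 26.6 CPM in wild type 1, 2 and 3. In SnoN cKO 1, 2 and 3 it was at 26.5, 15.4 and 29.3 CPM, lowest in SnoN cKO 2. Its log2 fold change was -0.43 (SE 0.20), with an adjusted p of 0.654 by edgeR, and the groups overlapped. For Cxcl14, Ccl27a and Ccl25 the log2 fold changes were -0.18 (SE 0.13), -0.12 (SE 0.11) and 0.17 (SE 0.13). Ccl27a and Ccl25 overlap genes on the other strand, and the library kit does not record strand. Ccrl2 did not overlap between genotypes, at 0.594 ± 0.118 CPM against 0.905 ± 0.11 CPM, yet it rests on at most 15 counts per library, and 13.7% of all genes tested were separated in this way. Ccr9, the receptor of Ccl25, had a log2 fold change of 0.65 (SE 0.47) on at most 15 counts, and 6 annotated genes overlap it, some of them on the same strand. For Ackr1 and Cx3cr1 they were -0.07 (SE 0.06) and 0.07 (SE 0.09). Cxcl9, Cxcl15, Ccl8, Ccr8 and Cxcr1 had 0 counts in all 6 libraries, and were named after their values were seen.

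Beyond the pair, the remaining 38 genes of the pathway list were all measured, and none passed the adjusted threshold. By unadjusted p under 0.05 there were 2 higher and 1 lower in SnoN cKO, or 7.89% of the list beside 7.68% of all genes. Genotypes did not overlap in 6 of 38, or 15.8%, beside 13.7% of all genes. The background was 3.21% higher and 4.47% lower at that p, and 6.95% higher and 6.73% lower without overlap. Both shares are near it. The median log2 fold change was 0.02, with 22 positive and 16 negative. By DESeq2, which called 6 of 15457 genes, and by limma-voom, which called 0, no gene of the list passed.

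The group of ligand processing and other ligands held Dpp4, Mmp2, Mmp14, Mif, Hmgb1 and Cd74, which encodes a receptor chain for Mif, and 5 of these 6 were positive. The mean of Dpp4, a peptidase that inactivates Cxcl12, was 6.98 CPM for SnoN cKO and 6.83 CPM for wild type, with a log2 fold change of 0.04 (SE 0.16). Mif, a cytokine that is a further ligand of Cxcr4, was at 23.4, 24.7 and 23.3 CPM in SnoN cKO 1, 2 and 3. In wild type 1, 2 and 3 it was at 19.4, 21.9 and 21.6 CPM, below each SnoN cKO library. Its log2 fold change was 0.18 (SE 0.08), with an unadjusted p of 0.0413 and an adjusted p of 0.638 by edgeR's quasi-likelihood test. Mif has processed pseudogenes in the mouse genome that can share its reads, so its count is uncertain.

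Of 4 G protein genes 3 were positive, and of 9 genes of receptor desensitization and degradation 5 were positive. For Gnai3, an inhibitory G protein alpha subunit, the log2 fold change was 0.08 (SE 0.04), and for the neuronal subunit gene Gnao1 it was -0.07 (SE 0.05). Grk6, a kinase that phosphorylates activated receptors such as Cxcr4, was at 92.8, 92.6 and 84.8 CPM in SnoN cKO 1, 2 and 3. Wild type 1, 2 and 3 had 79.8, 83.6 and 84.6 CPM, so that SnoN cKO 3 was barely above wild type 3. Its log2 fold change was 0.12 (SE 0.05), with an unadjusted p of 0.0388 and an adjusted p of 0.637 from edgeR. For Arrb1, a beta-arrestin that uncouples receptors from G proteins, the log2 fold change was -0.09 (SE 0.05).

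The ephrin-B system, known in mouse granule cells to block attraction to Cxcl12 through the regulator Rgs3, overlapped between genotypes in each of its 4 genes. Log2 fold changes were 0.05 (SE 0.08) for Rgs3, 0.03 (SE 0.06) for the ligand gene Efnb1 and -0.03 (SE 0.07) for the receptor gene Ephb2. Rgs3 has 17 annotated transcripts, which counts per gene do not separate. Among 12 downstream genes, 6 were positive and 6 negative. Ptk2b, a kinase related to focal adhesion kinase, was lowest in SnoN cKO relative to wild type. It was at 3.91, 5.65 and 4.21 CPM in wild type 1, 2 and 3 and at 3.45, 2.30 and 3.52 CPM in SnoN cKO 1, 2 and 3. The log2 fold change was -0.58 (SE 0.22), with an unadjusted p of 0.0236 and an adjusted p of 0.637 from edgeR. Pik3cb, a catalytic subunit of phosphoinositide 3-kinase, had a log2 fold change of -0.14 (SE 0.07).

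**Figure D3:**
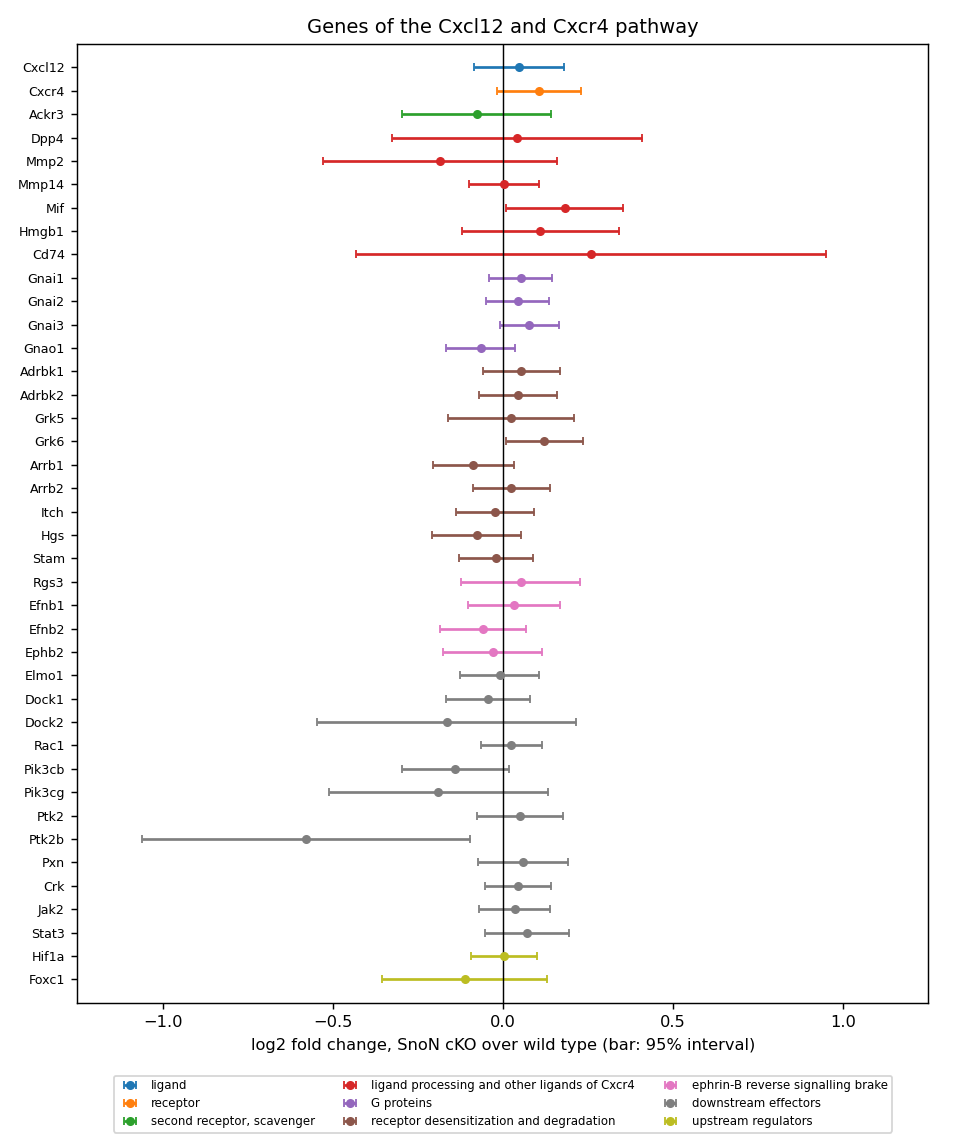
Log2 fold change, SnoN cKO over wild type, of the 40 genes of the pathway list, coloured by role, with 95% intervals from the edgeR fit. Most points lie near 0, between -0.19 and 0.26, and Ptk2b stands apart at -0.58. Intervals of Mif, Grk6 and Ptk2b leave out 0, and none of them passed after adjustment over all genes.

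Markers of the meninges, a source of Cxcl12, overlapped between genotypes in their summed level. The 13 meninges and fibroblast genes summed to between 1053 and 1276 CPM in wild type and between 957 and 1167 CPM in SnoN cKO. All 13 had counts, and the log2 fold change was negative for 13 of 13 (median -0.13), though 0 passed the adjusted threshold. Collagen genes dominate the sum. Over the 6 libraries Col3a1, Col1a2 and Col1a1 were at means of 363, 274 and 179 CPM, and Foxc1 at 25.1 CPM. The mean log2 sum differed by -0.14, SnoN cKO minus wild type, by -0.07 without SnoN cKO 1 or without wild type 1, and by -0.21 without SnoN cKO 3 or without wild type 2. Log2 fold changes were -0.27 (SE 0.08) and -0.22 (SE 0.09) for Col1a1 and Col1a2, the chains of type I collagen, and -0.50 (SE 0.24) for the matrix proteoglycan gene Ogn. The adjusted p of these 3 lay between 0.637 and 0.654 by edgeR. Foxc1, a transcription factor of the meninges that is needed for cerebellar Cxcl12 in mice, had a log2 fold change of -0.11 (SE 0.11).

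Relative to the meningeal genes, Cxcl12 overlapped between genotypes as well. Its CPM divided by their summed CPM, which collagen genes dominate, was 0.0951, 0.105 and 0.111 for wild type 1, 2 and 3. For SnoN cKO 1, 2 and 3 it was 0.129, 0.117 and 0.107. SnoN cKO 3 fell within the wild type range. The mean log2 ratio differed by 0.19, SnoN cKO minus wild type, with a two-sided exact permutation p of 0.2. That difference was 0.12 without SnoN cKO 1 and 0.05 without both SnoN cKO 1 and 2. Endothelium and pericytes were the other sources considered. The 12 endothelium genes summed to between 578 and 595 CPM in wild type and between 589 and 626 CPM in SnoN cKO, and the 6 pericyte genes to between 456 and 470 CPM and between 455 and 474 CPM. Log2 fold changes were 0.14 (SE 0.05) and 0.12 (SE 0.05) for the angiopoietin receptor gene Tek and its relative Tie1, and -0.17 (SE 0.06) for the growth factor receptor gene Flt1. For the pericyte gene Rgs5 it was 0.05 (SE 0.05). The part of these cells in the Cxcl12 level was not tested.

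Markers of granule precursors, which carry Cxcr4, overlapped between genotypes in their summed level. The 15 granule precursor genes summed to between 3685 and 4109 CPM in wild type and between 3861 and 4350 CPM in SnoN cKO, with 12 positive and a median log2 fold change of 0.09, and 0 passed the adjusted threshold. The mean log2 sum differed by 0.08, and by between 0.03 (without SnoN cKO 2) and 0.13 (without wild type 3) with 1 library left out. It was 0.05 without wild type 1. Highly counted genes dominate this sum: over the 6 libraries Zic1 was at a mean of 1486 CPM and Atoh1 at 29.0 CPM. The sums of Bergmann glia, Purkinje cell and microglia genes differed by 0.08 each. For Sfrp1, Barhl1 and Atoh1 the log2 fold changes were 0.23, 0.18 and 0.18 (SE 0.08 each), with adjusted p between 0.637 and 0.654 from edgeR. Cxcr4 divided by the granule precursor sum differed by 0.03 in log2 between genotypes, with a two-sided exact permutation p of 0.8. Without wild type 3 that difference was -0.02. The 8 genes of postmitotic granule neurons, which lose the receptor as they migrate, summed to between 3009 and 3426 CPM in wild type and between 3049 and 3236 CPM in SnoN cKO. In that list 5 of 8 genes were positive, with a median log2 fold change of 0.02. The 3 with the smallest p were Tubb3 at -0.10 (SE 0.05), Astn1 at -0.09 (SE 0.04) and Cdkn1b at 0.09 (SE 0.05), and 0 of the 8 passed the adjusted threshold.

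Other cells of the dissection can hold Cxcr4 as well. The 12 microglia genes summed to between 211 and 238 CPM in wild type and between 223 and 252 CPM in SnoN cKO, with all of them positive or at 0.00. For Tyrobp, C1qb and Itgam the log2 fold changes were 0.30 (SE 0.11), 0.24 (SE 0.09) and 0.35 (SE 0.14), with an adjusted p of 0.637 each from edgeR. The 7 blood leukocyte genes were near absent, at between 1.53 and 4.80 CPM in sum, and 1 of them passed the filter on low counts. Bergmann glia and astrocyte genes summed to between 4064 and 4101 CPM in wild type and between 4208 and 4475 CPM in SnoN cKO, and the genotypes did not overlap. The genes of that list went both ways, with 5 of 8 positive and 3 negative, and log2 fold changes from -0.25 to 0.19. Taken singly, 5 of 8 did not overlap between genotypes, or 62.5%, beside 13.7% of all genes tested. Hopx and Aqp4 had log2 fold changes of 0.19 and 0.15, and Slc1a2 of -0.16. Brainstem genes summed to between 12.1 and 22.3 CPM in wild type and between 4.47 and 11.97 CPM in SnoN cKO, and did not overlap either, with a mean log2 difference of -1.07. Of 11 brainstem genes 7 were tested, and all 7 were negative. By edgeR, 4 of these 7 were lower at an unadjusted p under 0.05, or 57.1%, beside 4.47% of all genes tested. After adjustment 0 passed the threshold. Some of them had few counts, such as Hoxa5 with 3, 0 and 6 in SnoN cKO 1, 2 and 3. Purkinje cell genes summed to between 1772 and 1978 CPM in SnoN cKO and 1664 and 1844 CPM in wild type, oligodendrocyte genes to between 1136 and 1345 and 1312 and 1373 CPM, and choroid plexus genes to between 47.4 and 3428 and 1777 and 3306 CPM. The part of these cells in the level of Cxcr4 was not tested.

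**Figure D4:**
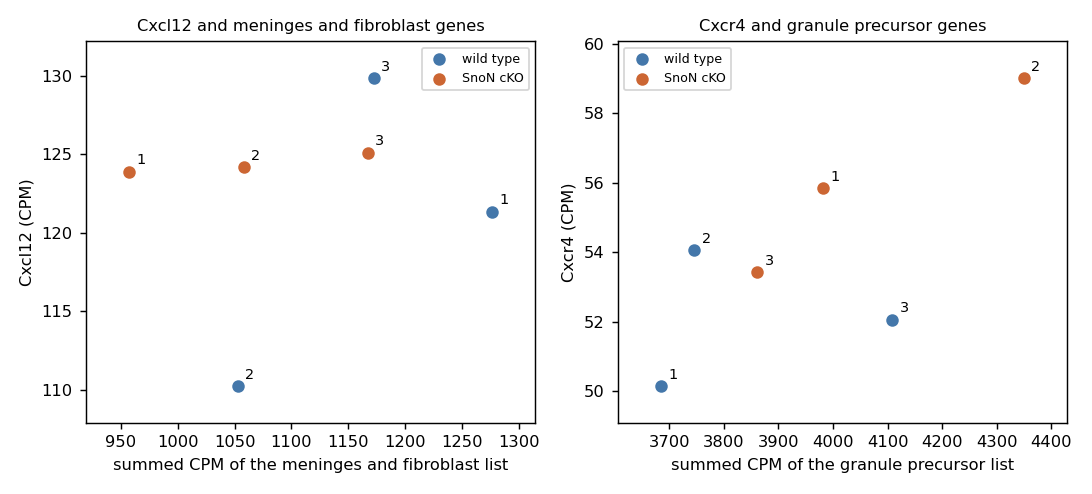
Cxcl12 against the summed CPM of 13 meninges and fibroblast genes (left) and Cxcr4 against that of 15 granule precursor genes (right), in CPM, 1 point per library with its replicate number. Neither axis starts at 0. No clear relation of Cxcl12 to the meningeal sum is seen in these points, while SnoN cKO 2 is highest and wild type 1 lowest in both measures on the right.

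Across the 6 libraries, the members were compared with these sums on log2 values, in 5 relations. Cxcr4 and the granule precursor sum had a Pearson r of 0.73 and a Spearman rho of 0.60, with exact permutation p of 0.108 and 0.242 and adjusted p of 0.271 and 0.495. Without SnoN cKO 2 and wild type 1, the libraries farthest from the median of that sum, r was -0.31. Cxcr4 and the endothelium sum had r of 0.81 and rho of 0.54 (exact permutation p of 0.0806 and 0.297, adjusted 0.271 and 0.495), and r was -0.62 without the same libraries. Cxcl12 and the meningeal sum had r of 0.22 and rho of 0.31 (exact permutation p of 0.683 and 0.564, adjusted 0.854 and 0.705). Without SnoN cKO 1 and wild type 1 that r was 0.73. For Cxcl12 and the endothelium sum r was 0.32 and rho 0.71 (exact permutation p of 0.494 and 0.136, adjusted 0.824 and 0.495), and r was 0.79 without SnoN cKO 2 and wild type 1. Cxcl12 and Cxcr4 had r of -0.01 and rho of -0.09 (exact permutation p of 0.933 and 0.919, adjusted 0.933 and 0.919). Without SnoN cKO 2 and wild type 1 that r was -0.35. None of the 5 passed, and 6 libraries cannot show that a relation is absent. Each r with libraries left out rests on few points of a narrower range, and cannot show which libraries a relation rests on.

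The genes whose pattern over the 6 libraries was most like that of each member were different for the pair. For Cxcl12 these were Itgav, the integrin alpha V gene, Gabra4, Adamts18, Ttc39c and Rbck1, with Pearson r of log2 CPM between 0.977 and 0.992 among 11864 genes compared. For Cxcr4 they were the splicing factor gene U2af2, the mitotic helicase gene Ercc6l, Peg12, Rnf220 and the purine synthesis gene Atic, with r between 0.988 and 0.997. Of the genes compared, 20 had an r above 0.95 with Cxcl12 and 42 with Cxcr4. With 6 points and so many genes, such values are a description of these libraries. Relative to genes of like level, Cxcl12 varied somewhat more over the 6 libraries, with a coefficient of variation of 5.38% beside a median of 4.12% for 1046 genes. Cxcr4 stood at 5.69% beside 5.19% for 1477 genes.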

How the data were processed

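Raw counts of reads on each gene were deposited by the authors, in 1 table of 6 libraries. The mm9 build and the tools featureCounts 1.4.5, Subread and STAR 2.0.4b are listed, per the submitters' processing notes, with no annotation named. Per the labels' protocols, RNA came from Trizol extraction and the kit (NEBNext Ultra) does not record strand. Symbols, not identifiers, named the genes. Identifier and symbol matched in 97 of 40254 entries with an identifier in GENCODE M21. The counts follow the symbols: 20 of 1514 chemosensory receptor entries had at least 10 counts by symbol, and 651 of 1455 by identifier. In total, 660 entries with a repeated symbol and equal counts were dropped.

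Genes passing edgeR's filterByExpr (minimum count 10), 15457 in all, were scaled by TMM and tested for genotype with edgeR 4.0.16 (quasi-likelihood, two-sided, no covariates, all 6 libraries) in R 4.3.3, with Benjamini-Hochberg adjustment over all genes at 0.05. The method was run on simulated counts that gave all genes the same variation between libraries beyond counting, which the genes of these data do not share. The SE is the log2 fold change over the square root of F. Exact permutation tests used scipy 1.17.1. DESeq2 1.42.0 and limma 3.58.1 (voom) were run as alternatives, with other scalings, no filter, a replicate block, labelled sex and libraries left out. Each sample has its own code in the labels and was taken as 1 animal. Nothing more is said there of the replicates, so p-values measure the spread between these samples.

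Named genes were the pair, Skil, Ackr3, Dpp4, Mif, Rgs3, Efnb1, Ephb2 and the 6 others of the pathway list with the smallest p. From the chemokine list came the 6 highest in CPM and the 3 with the smallest p, from marker lists up to 3 with the smallest p (examples are given), and the 5 genes most alike in pattern to each member, at a mean of at least 5 CPM. Foxc1, Col3a1, Zic1, Gm42418, Ttr, Xist and Ddx3y were named besides, after their values were seen. The members and lists were chosen with earlier results of these data known.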

Additional observations from a re-analysis of the deposited data

How the results depend on the processing

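Cxcr4 and Ackr3 kept their direction and stayed short of the adjusted threshold in all 14 alternatives run, with log2 fold changes from 0.03 to 0.15 and from -0.17 to -0.002. Cxcl12 did so in 13 of 14 and turned without wild type 2 (-0.0097, adjusted p 0.988 from edgeR, where its adjusted p over the alternatives ran from 0.606 to 0.9996). With 1 library left out, Cxcl12 lay between -0.0097 and 0.10. The ratio of Cxcl12 to Cxcr4 turned to 0.0202 without SnoN cKO 1 and 2, a setting that was added after seeing the data. The ratio of Cxcr4 to granule precursor genes lay between -0.0214 and 0.0723 with 1 library left out, and turned without wild type 3. The causes were not tested. No gene of the pathway or chemokine lists passed in any alternative. Over all genes, 0 passed by edgeR (1187 at an unadjusted p under 0.05), against 39 with no filter on low counts, 6 by DESeq2, 1 with labelled sex as a covariate and 7 without SnoN cKO 1 and 2, where SnoN cKO 3 alone, the library with the highest Gm42418, stands against 3 wild type libraries and is assumed to vary like them. With the replicate block 0 genes passed, and Cxcl12 and Cxcr4 had log2 fold changes of 0.05 and 0.11 (adjusted p 0.897 and 0.836 from edgeR). The replicate numbers gave no sign of pairing: deviations of same-numbered libraries correlated at -0.04, -0.32 and -0.18. The highest value of any pair was 0.39, for wild type 2 and SnoN cKO 3, the libraries with high Gm42418. Deviations were taken from the mean of the 3 libraries of each genotype, so this check cannot exclude pairing. Depth limits Ccrl2, Ccr9 and other chemokine genes of few counts. It also bears on the pair: counting error per library was 3.31% to 3.95% for Cxcr4, beside a wild type coefficient of variation of 3.75%, and for Cxcl12 it exceeded that of SnoN cKO (0.508%).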
